A study of Mus musculus with 6 samples.

Results

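Expression of 6 genes that make leukotrienes or receive their signal was examined in mouse macrophages: Alox5, Alox5ap, Lta4h and Ltc4s of the synthesis route, and the receptor genes Ltb4r1 and Cysltr1. All probe sets annotated to just 1 of these genes were taken, which gave 6 of the 18193 genes with such a probe set and 9 of the 45037 probe sets on the array, 3 for Lta4h, 2 for Cysltr1 and 1 for each of the others. The 6 arrays, 1 per sample, carried wild-type macrophages kept in medium (n = 1), wild-type macrophages given lipopolysaccharide (LPS, a bacterial cell wall component; n = 1), and LPS-treated macrophages labelled Trib1 wild type (n = 2) or Trib1 KO (n = 2), each numbered 1 and 2. The series text assigns the first pair to finding LPS-inducible genes and the other 4, called Trib1-line arrays here, to comparing genotypes. The labels give neither the origin of the macrophages, nor the strain, age, LPS dose, duration or deletion design, nor whether like arrays stem from different mice or cultures, so the p-values reflect only how far these samples spread, which may be technical.

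Leukotrienes are lipid mediators made from arachidonic acid. The enzyme 5-lipoxygenase (Alox5), helped by the membrane protein FLAP (Alox5ap), forms the unstable epoxide LTA4. LTA4 hydrolase (Lta4h) turns it into LTB4, a chemoattractant for neutrophils that acts on the receptor BLT1 (Ltb4r1), whereas LTC4 synthase (Ltc4s) joins it to glutathione and opens the cysteinyl leukotriene branch, whose products act on the receptor encoded by Cysltr1. Macrophages, neutrophils, mast cells and eosinophils are known sources of these lipids. Trib1 encodes a kinase-like protein without catalytic activity that promotes the breakdown of C/EBP transcription factors.

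The values are MAS5 intensities rescaled so that all arrays share 1 trimmed mean, and 29.9 on this scale, the 40th percentile of all values, was taken as the floor for ratios. Probe sets differ in how strongly they bind, so levels were compared between arrays and genes were not ranked by level. Sums over marker lists serve to compare arrays only, and the probe sets with the highest intensities weigh most in them. The share of probe sets above this floor ran from 57.9% to 63.0% per array. All 10 macrophage markers examined (among them Adgre1, Cd68 and Csf1r) were above it on every array, and their summed intensity ranged from 80170 to 99246. The 2 probe sets of Trib1 measured 17.9 and 17.5 and then 20.2 and 63.0 on the Trib1-line wild types. On the knockout-labelled arrays they measured 88.1 and 20.9 and then 32.3 and 38.7, which shows no loss. All these wild-type values but 63.0 are under the floor, where a loss could not show, so the values cannot test the labels. The first probe set measured 383.5 on the medium array and 189.3 on the LPS array beside it. Where these probe sets lie relative to the deletion is not given, and genotype directions rest on the labels. The LPS pair and the Trib1-line arrays stood apart: their deposited trimmed means were 500 against 95.5 to 106.6, Xist measured 980.5 or more on the LPS pair and 5.56 or less on the Trib1 line, and the Y-linked gene Eif2s3y measured 4.74 or less and 218.8 or more. These differences and any difference in culture or animals cannot be told apart in comparisons that cross the 2 sets.

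The DNA before the start of 2 genes is shown because Ltb4r1 had the largest differences with LPS and genotype among the 6 genes and Ltc4s the largest between the 2 sets of arrays. RefSeq windows (build GRCm38.p6) of 250 bases before to 50 bases after the gene start were held for 4 of the 6 genes, Alox5, Lta4h, Ltc4s and Ltb4r1. The lines below give the 250 upstream bases, 5′ to 3′ on the gene's strand, at chr14:55765712-55765961 (plus strand) for Ltb4r1 and chr11:50238533-50238782 (minus strand) for Ltc4s. Capitals mark matches to any of the 3 motifs searched.
Ltb4r1: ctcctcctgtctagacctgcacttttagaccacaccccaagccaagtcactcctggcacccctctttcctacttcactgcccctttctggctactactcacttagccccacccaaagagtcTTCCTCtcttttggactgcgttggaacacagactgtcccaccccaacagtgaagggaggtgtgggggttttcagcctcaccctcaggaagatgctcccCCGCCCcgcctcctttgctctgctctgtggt
Ltc4s: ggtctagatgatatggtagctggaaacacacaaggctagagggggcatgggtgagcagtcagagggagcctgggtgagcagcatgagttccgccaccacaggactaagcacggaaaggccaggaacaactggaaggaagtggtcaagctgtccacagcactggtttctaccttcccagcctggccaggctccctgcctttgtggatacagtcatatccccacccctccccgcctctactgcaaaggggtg
The motifs, searched on both strands over all 300 bases, were TTNNGCAA for C/EBP, GGGCGG for the GC box and GAGGAA for the ETS core bound by PU.1, a macrophage transcription factor. These patterns did not overlap in the 4 windows. In Ltb4r1 the capitals show 1 ETS core, starting 129 bases before the gene start, and 1 GC box, starting 31 bases before it, both on the opposite strand. A further ETS core of Ltb4r1, also on the opposite strand, lay just after its start and is not printed. Ltc4s held an ETS core only after its start, so its upstream line has no capitals. The ETS core occurred in 4 of the 4 windows, beside 28.3% of all 32851 promoter windows of this length. The GC box occurred in 2 of 4 (Alox5 and Ltb4r1; 35.7% of all windows) and the C/EBP pattern in 0 of 4 (10.8%). A match describes letters in the window and does not show a bound site.

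**Figure D1:**
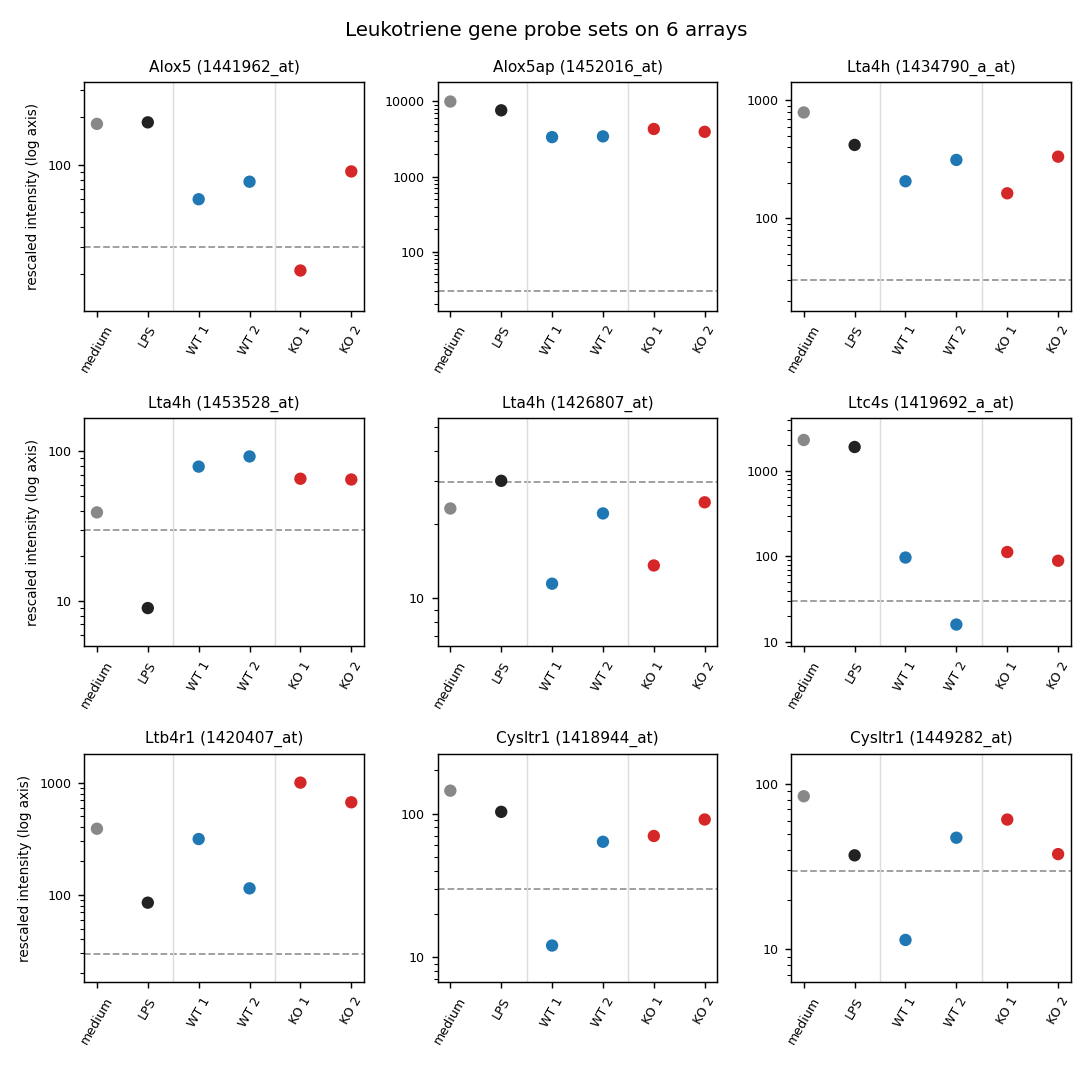
Rescaled intensity (log axis, a separate scale in each panel) of the 9 leukotriene probe sets on each of the 6 arrays, 1 point per array. Grey is medium, black the LPS array of the LPS pair, blue the Trib1-line wild types and red the knockout-labelled arrays, and the dashed line is the floor of 29.9. Ltb4r1 is highest on the red arrays (1002 and 668.7), and Ltc4s is high only on the LPS pair (2308 and 1911).

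The first question was how the leukotriene genes differ between medium and LPS. Ltb4r1 was the 1 member past the 4-fold rule. Its intensity was 388.4 in medium and 85.0 on the LPS array, 4.57-fold lower. Both wild-type Trib1-line arrays, which also had LPS, measured 314.4 and 114.1, so all 3 LPS arrays lay below medium, by 4.57-fold, 1.24-fold and 3.40-fold. Of the 9 member probe sets with a value above the floor on either array, 0 were higher and 1 was lower by the rule, beside 0.986% higher and 0.598% lower of 29115 probe sets. With 1 array per condition no test applies. After quantile normalization the Ltb4r1 log2 ratio went from -2.19 to -1.96, just short of 4-fold, and with the 3 LPS arrays against medium in limma it was -1.42 (SE 0.73, Benjamini-Hochberg adjusted p = 0.680). That test assumes the lone medium array varies like the others, and it called 0.169% of all probe sets.

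The synthesis genes differed less within the LPS pair. Alox5 measured 181.9 in medium and 186.0 on the LPS array. Alox5ap measured 9947 and 7605 (1.31-fold lower), and Ltc4s 2308 and 1911 (1.21-fold lower). Its highest probe set put Lta4h at 791.5 and 420.0 (1.88-fold lower). The other 2 Lta4h probe sets were near the floor on the pair, 1453528_at at 39.1 and 9.00 and 1426807_at at 23.2 and 30.1. Cysltr1 measured 144.4 and 102.8 on 1418944_at (1.41-fold lower) and 84.1 and 37.0 on 1449282_at (2.27-fold lower). Of the 9 probe sets 7 had a ratio under 1, beside 56.4% of all 29115, and the median log2 ratio was -0.39, beside -0.09 over all.

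On all 3 wild-type LPS arrays, 6 of the 9 member probe sets lay below medium and 0 above it, beside 27.6% and 19.0% of 33134 probe sets. The 6 were the single probe sets of Alox5ap, Ltc4s and Ltb4r1, both of Cysltr1 and the highest of Lta4h. The gap between the LPS pair and the Trib1 line moves with this count: 5 of the 9 were lower on all 4 Trib1-line arrays than on both arrays of the pair, beside 10.1% of 34684 probe sets, and the part of that gap was not tested. The probe set 1453528_at of Lta4h ran the other way, with 79.0 and 92.4 on the Trib1-line wild types, above the 39.1 of medium. The 3 probe sets of Lta4h therefore do not give 1 direction.

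**Figure D2:**
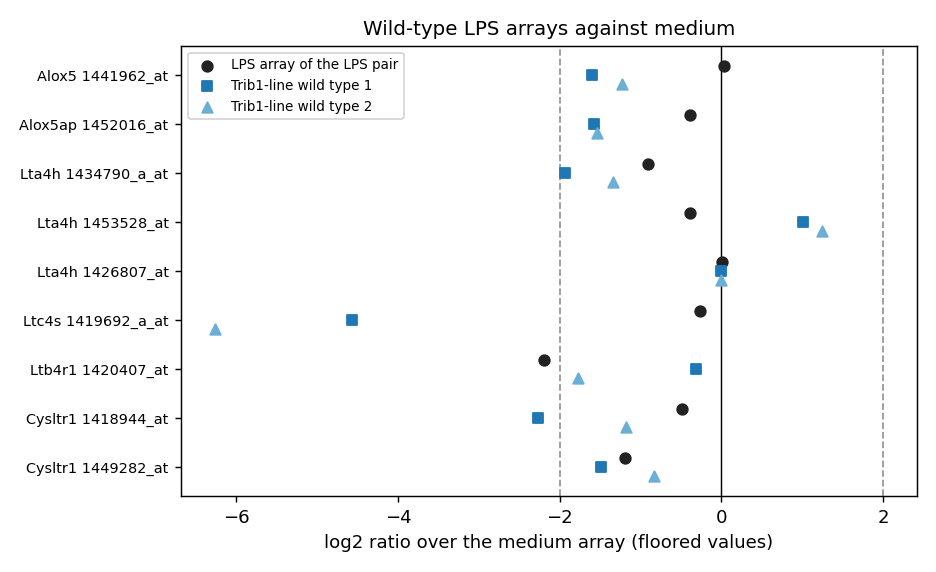
Log2 ratio of each wild-type LPS array over the 1 medium array for the 9 probe sets, with intensities under the floor set to 29.9. Circles are the LPS array of the LPS pair, squares and triangles the Trib1-line wild types 1 and 2, and dashed lines mark 4-fold. Ltb4r1 passes 4-fold on the LPS array (-2.19), whereas Ltc4s passes it only on the Trib1-line arrays (-4.57, and -6.27 or lower for the array under the floor).

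Ltc4s set the LPS pair apart from the Trib1 line more than any other member. After 2308 and 1911 on the pair, it measured 97.2 and 15.99 on the Trib1-line wild types and 112.8 and 89.2 on the knockout-labelled arrays. The lower array of the pair was 16.9-fold above the highest Trib1-line array. By a rule of at least 4-fold between the sets in that direction, Ltc4s was 1 of 9 member probe sets, beside 0.0951% of 34684. The pair's LPS array and the Trib1-line wild types carry the same labels of genotype and treatment, and the LPS array was 19.7-fold above wild type 1 and at least 64.0-fold above wild type 2, which was under the floor. Alox15, the 12/15-lipoxygenase that oxygenates arachidonic acid at another carbon, had the same kind of gap (chosen after its values were seen). It measured 937.3 and 798.5 on the pair, 90.1 and 110.2 on the Trib1-line wild types, and 35.3 and 62.4 on the knockout-labelled arrays. Among the 10 macrophage markers just Mrc1, the mannose receptor gene, had such a gap. It measured 5430 and 3503 on the pair and between 280.0 and 667.3 on the Trib1 line, its lower value on the pair 5.25-fold above the highest of the line, a ratio that was between 0.271 and 1.04 for the other markers. Alox5 (60.1 and 77.8 on the Trib1-line wild types) and Alox5ap (3348 and 3425) were also lower there than on the pair, by less than 4-fold.

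Mast cells and eosinophils make cysteinyl leukotrienes, so their markers were read beside Ltc4s, with those of B cells. The summed intensity of 8 mast cell markers was 1274 and 1659 on the pair, 777.5 and 1111 on the Trib1-line wild types and 583.8 and 328.5 on the knockout-labelled arrays. Among them Hdc, which makes histamine, measured 92.1 and 252.8 on the pair, 28.2 and 24.3 on the Trib1-line wild types and 373.1 and 17.3 on the knockout-labelled arrays. Mcpt4, a mast cell protease gene, measured 110.7 and 114.3 on the pair and 15.7 and 76.4 on the Trib1-line wild types. For Cpa3, the mast cell carboxypeptidase, these were 415.0 and 503.9 and then 297.1 and 366.8, and Cma1 was higher on the pair too. Not all mast cell markers were higher there. Fcer1a measured 60.7 and 59.9 on the pair and 61.2 and 74.4 on the Trib1-line wild types. For Ms4a2 these were 22.0 and 2.64 and then 52.0 and 63.7, and for Tpsb2 and Kit the 2 sets overlapped. The 5 eosinophil markers with a probe set summed to between 82.0 and 287.4 on the 6 arrays. Of these, Siglecf measured 65.0 and 158.9 on the pair and between 7.63 and 42.1 on the Trib1 line, whereas Epx, the eosinophil peroxidase, was under the floor on both arrays of the pair (5.36 and 7.17). Of the B cell markers, Cd79b, Cd79a, Ms4a1 and, by a small margin (1.17-fold), Pax5 were higher on the pair as well, whereas Blnk overlapped. Cd79b, a part of the B cell receptor, measured 425.3 and 550.5 there and between 44.2 and 121.8 on the Trib1 line, Cd79a 331.6 and 628.3 against 66.5 to 149.4, and Ms4a1 408.9 and 1006 against 76.5 to 225.2. The 5 B cell markers with a probe set summed to 2904 and 4413 on the pair and to between 1205 and 2686 on the Trib1 line. Much of these sums was Blnk, with 1635 and 2094 on the pair and between 731.9 and 2102 on the Trib1 line. The part of mast cells, eosinophils and B cells in the Ltc4s values was not tested. In bulk RNA, fewer cells of a type and less RNA per cell cannot be told apart.

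The second question was how the genotypes differ after LPS. Ltb4r1, the receptor gene for LTB4, had the largest difference among the members. The wild types gave 314.4 and 114.1, and the knockout-labelled arrays 1002 and 668.7. Both knockout-labelled arrays lay above both wild types, the lower of them 2.13-fold above the higher wild type, and above the 388.4 of medium. The difference was 4.32-fold (log2 2.11, SE 0.51, n = 2 per genotype), with a limma p of 0.885 after Benjamini-Hochberg adjustment over all probe sets. It therefore did not pass in this fit, which has no block for the array numbers, and by p it stood at place 225 of 29078. The wild types themselves differed 2.76-fold, and leaving out 1 array gave log2 differences from 1.38 (without wild type 2) to 2.84 (without wild type 1), all above 0 and none past the adjusted threshold.

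Of the 8 member probe sets tested, limma called 0 higher and 0 lower, beside 0% of 29078 probe sets. At an unadjusted p under 0.05 there was 1 (Ltb4r1), beside 4.99% of all. The groups did not overlap for 4 of the 8. In 3 of these, Ltb4r1, Alox5ap and the higher probe set of Cysltr1, the knockout-labelled arrays were above, and 15.4% of all probe sets had that order. In 1453528_at of Lta4h they were below, as in 16.3% of all. By the rule of both arrays at least 2-fold above both wild types, Ltb4r1 was the 1 member, beside 0.389% of all probe sets. With 2 arrays per genotype the smallest two-sided p of an exact permutation test is 0.333, so limma, which borrows the spread of other probe sets, was used. The median log2 difference over the 8 was 0.31, beside -0.01 over all.

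Among the enzymes of LTA4 synthesis, Alox5ap measured 3348 and 3425 on the wild types and 4294 and 3938 on the knockout-labelled arrays. The groups did not overlap, but the difference was small (1.21-fold, log2 0.28, SE 0.16, limma adjusted p = 0.999). Alox5 measured 60.1 and 77.8 against 21.1 and 90.5. The lower knockout-labelled value is under the floor, the groups overlap, and the sign turned when that array was left out (log2 -0.40, and 0.40 without knockout 1).

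For the enzymes past LTA4, the highest Lta4h probe set measured 206.8 and 313.5 on the wild types and 163.5 and 334.1 on the knockout-labelled arrays, a difference well inside the spread (log2 -0.12, SE 0.43). Its probe set 1453528_at measured 79.0 and 92.4 against 65.6 and 64.9 (log2 -0.39, SE 0.35), and 1426807_at was under the floor on all 4 Trib1-line arrays and was not tested. Ltc4s measured 97.2 and 15.99 against 112.8 and 89.2. Just 1 of the wild types was above the floor, the groups overlap, and the wild types differed at least 3.25-fold. The log2 difference of 0.90 (SE 0.62) was 1.75 without wild type 1 and 0.05 without wild type 2.

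Cysltr1, the cysteinyl leukotriene receptor gene, was low on these arrays. On 1418944_at it measured 12.1 and 63.6 on the wild types and 69.8 and 90.9 on the knockout-labelled arrays (log2 0.87, SE 0.47; 0.32 without wild type 1 and 1.41 without wild type 2). On 1449282_at it measured 11.4 and 47.3 against 60.8 and 37.6 (log2 0.35, SE 0.40; from 0.00 without knockout 1 to 0.70 without knockout 2), with overlapping groups. Wild type 1 was under the floor on both probe sets. All tested members other than Ltb4r1 had a limma adjusted p = 0.999.

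**Figure D3:**
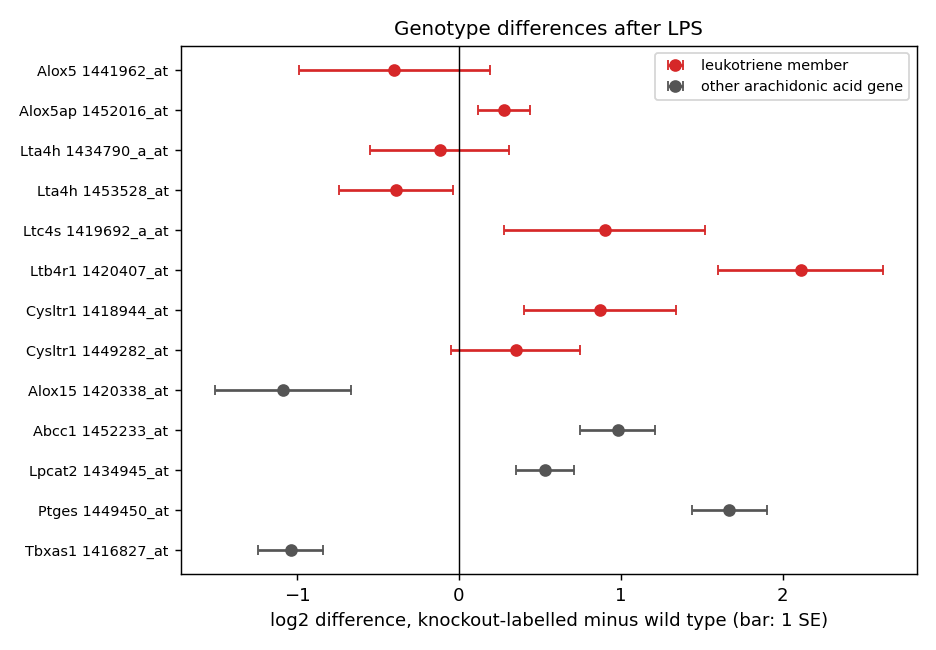
Log2 difference of knockout-labelled minus wild-type Trib1-line arrays (n = 2 per genotype) with 1 SE from limma, for the 8 tested leukotriene probe sets (red) and 5 other genes of arachidonic acid metabolism (grey). Ltb4r1 lies farthest from 0 (2.11), and none of the 13 points passed the adjusted threshold.

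LTB4 receptors are a feature of neutrophils, so neutrophil markers were read beside Ltb4r1. The summed intensity of the 9 markers with a probe set was 2648 and 2074 on the wild types and 5948 and 3412 on the knockout-labelled arrays. Mmp8, neutrophil collagenase, measured 212.1 and 121.8 against 2587 and 713.6 (log2 3.08, SE 0.63, limma adjusted p = 0.848). Camp, the cathelicidin gene, was under the floor on both wild types (11.04 and 7.03) and measured 219.9 and 66.9 on the knockout-labelled arrays. Mmp9 measured 161.2 and 93.9 on the wild types and 501.8 and 327.7 on the knockout-labelled arrays. Knockout 1 had a higher value than knockout 2 for Ltb4r1 and for every neutrophil marker with a probe set. The order of 2 arrays is no test. In the mast cell list Hdc, Kit, Tpsb2, Fcer1a and Mcpt4 had it as well, whereas Cpa3, Cma1 and Ms4a2 did not. Csf3r made up most of the wild-type sums (1930 of 2648 and 1494 of 2074) and was a little higher on both knockout-labelled arrays (2170 and 2043). For the other markers of the list the genotypes overlapped or ran the other way. Cxcr2, the chemokine receptor of neutrophils, measured 13.8 and 16.8 against 32.7 and 16.7. Mpo measured 68.6 and 95.5 against 90.1 and 87.7, Elane 64.4 and 77.7 against 87.2 and 74.5, and Ngp, a granule protein gene, 99.9 and 80.0 against 219.4 and 68.7. Ltf, the lactoferrin gene, was lower on both knockout-labelled arrays (87.0 and 87.2 against 40.2 and 12.7). Of 8 neutrophil markers tested, 4 were higher and 1 lower with groups that did not overlap, beside 15.4% and 16.3% of all probe sets. Camp, among the 4, was tested only because both knockout-labelled arrays were above the floor, so the filter fixed its order. Limma called 0 of the 8, beside 0% of all. The part of neutrophils in the Ltb4r1 difference was not tested.

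Mast cell markers went the other way. Of the 6 tested, 5 were lower on both knockout-labelled arrays than on both wild types, beside 16.3% of all probe sets. Their median log2 difference over the 6 was -1.55, and limma called 0. Of the 5, Fcer1a was above the floor on the wild types alone, so the filter fixed its order. Mcpt4, above the floor on wild type 2 alone, was not tested. Kit overlapped between genotypes, and Hdc, which was above the floor on knockout 1 alone of the 4 arrays and so not tested, made up most of that array's sum (373.1 of 583.8). Cpa3 measured 297.1 and 366.8 on the wild types and 47.8 and 117.8 on the knockout-labelled arrays. Of 5 B cell markers tested 4 were lower in the same way (median log2 -0.83), and limma called 0. For Alox5 and Ltc4s, both expressed by mast cells, the genotypes overlapped. Alox5 was under the floor on knockout 1 (21.1) and Ltc4s on wild type 2 (15.99). The part of mast cells in the values of these genes was not tested.

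**Figure D4:**
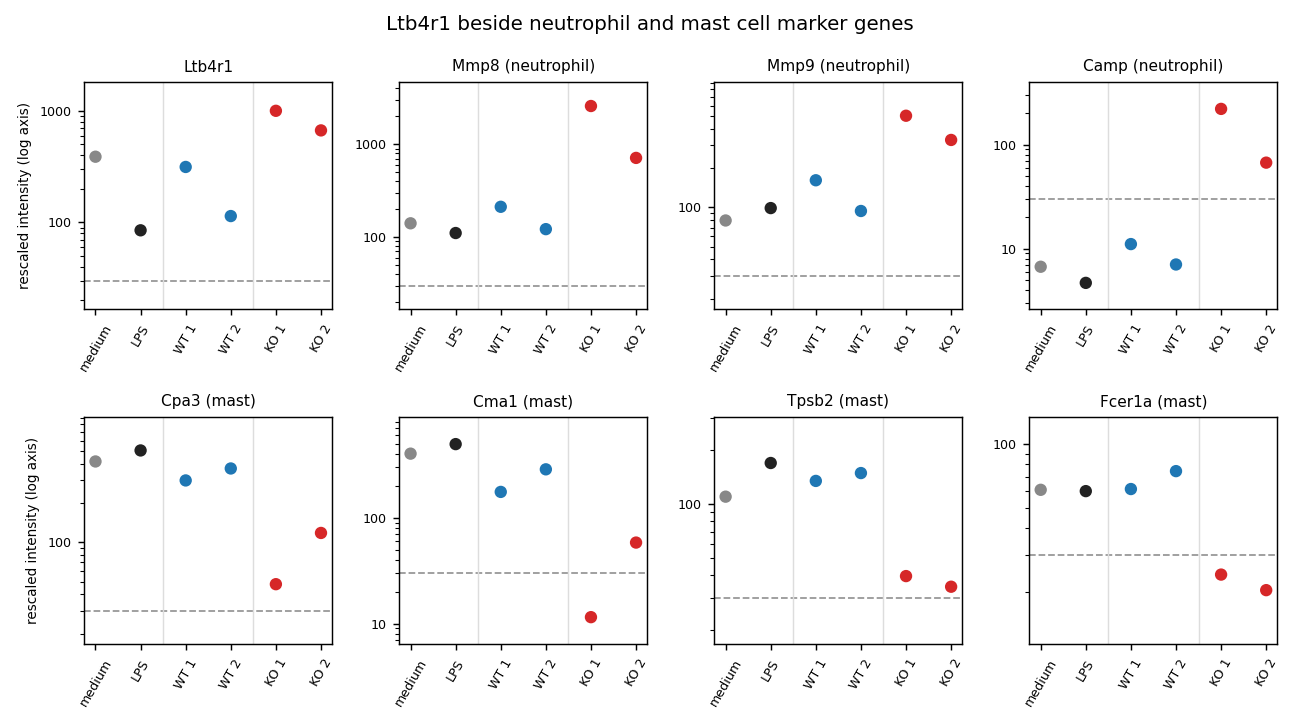
Rescaled intensity (log axis, a separate scale in each panel) of Ltb4r1, 3 neutrophil and 4 mast cell marker genes on the 6 arrays, with the floor of 29.9 dashed and colours by group (grey medium, black LPS, blue Trib1-line wild type, red knockout-labelled). Mmp8, Mmp9 and Camp are higher and the 4 mast cell genes lower on both red arrays than on both blue ones. Ltb4r1 is highest on the red arrays too (1002 and 668.7). Not drawn are Mpo, Elane, Ngp, Cxcr2, Kit, Mcpt4 and Hdc of the same lists, whose genotypes overlapped. Ltf and Ms4a2 (lower on both red arrays) and Csf3r (higher) are not drawn either.

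Other genes of the route were taken from lists of arachidonic acid release, lipoxygenases, leukotriene export and breakdown, and lipid receptors (35 of 39 genes with a probe set of their own) and of prostaglandin synthesis (7 of 9). With LPS, 1 of 28 measured genes of the first list was higher by the 4-fold rule and 0 were lower. It was Fpr2, a formyl peptide receptor that also binds lipoxin A4, at 617.1 in medium and 10304 on the LPS array (16.7-fold), with 13370 and 15487 on the Trib1-line wild types. Of the 7 prostaglandin genes 2 were higher, the inducible cyclooxygenase gene Ptgs2 (931.5 to 12711) and the prostaglandin E synthase gene Ptges (204.5 to 2193). The median log2 ratios were -0.18 and 0.11, beside -0.09 over all 29115 probe sets, of which 0.986% were higher and 0.598% lower by the rule.

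Between genotypes, limma called 0 of 27 tested genes of the first list and 0 of 7 prostaglandin genes. At an unadjusted p under 0.05 there were 4 and 2, beside 4.99% of all probe sets. The 4 genes with the smallest p among those with separate groups were Ptges, Tbxas1, Abcc1 and Lpcat2. Abcc1, an exporter of LTC4, measured 1013 and 1513 on the wild types and 2424 and 2445 on the knockout-labelled arrays (log2 0.98, SE 0.23, adjusted p = 0.885). For Ptges the wild types gave 1693 and 2396, and the knockout-labelled arrays 5922 and 6979 (log2 1.67, SE 0.23; limma, adjusted p = 0.766). Tbxas1, thromboxane synthase, gave 1019 and 883.9 and then 490.4 and 436.6 (log2 -1.04, SE 0.20; adjusted p = 0.818). Lpcat2, which puts acyl chains back on lysophospholipids, gave 1394 and 1487 on the wild types and then 2267 and 1918 (log2 0.53, SE 0.18; adjusted p = 0.950). The list medians were 0.14 and 0.37, beside -0.01 over all probe sets tested.

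Genes of like pattern were sought by Pearson correlation of log2 values over the 6 arrays, among 17634 single-gene probe sets above the floor throughout, for the 3 members that were too. Fcgr3, an Fc receptor gene (12133 and 9010 on the pair, 3977 to 5479 on the Trib1 line), was closest to Alox5ap (r = 0.996), before Apex1 (r = 0.994). Iqgap2 (r = 0.996) and Las1l (r = 0.992) were closest to Lta4h. For Ltb4r1 they were Me2 (r = 0.991), with intensities between 166.5 and 227.5, and Med24 (r = 0.987). Correlation ignores the size of change, and Me2 spans a far smaller range than Ltb4r1. With 6 points and so many candidates these are descriptions only.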

How the data were processed

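Total RNA extracted with TRIzol was hybridised as biotinylated cRNA to 1-colour Affymetrix arrays, per the labels. The authors deposited 1 linear-scale intensity per probe set and array, computed with MAS5 per the submitters' processing notes, with version and scaling target not given in the sources used here. Of 45101 probe sets, 64 controls were left out. Each array was rescaled to a mean of 234 without its lowest and highest 2%, intensities under the pooled 40th percentile were raised to it, and log2 was taken. Groups come from the sample titles.

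For the genotypes limma 3.58.1 (R 4.3.3) was run two-sided with lmFit and eBayes with a trend, on probe sets that exceeded the floor on 2 or more of the 4 arrays (2 residual and 3.68 prior degrees of freedom), with Benjamini-Hochberg adjustment over all and a threshold of 0.05. LPS was compared with medium by a 4-fold rule. The code was tested on simulated data. Members and lists were chosen with earlier results of these data known. The rule for genes named outside the 6 members took those past 4-fold with LPS, the 4 smallest p with separate genotype groups and 2 of like pattern per member, each by the probe set with the highest mean. Gene names follow the array annotation, updated by gene identifier through RefSeq (GRCm38.p6). Promoter matching and figures used Python 3.11.15, pandas 2.3.3, numpy 2.4.6 and matplotlib 3.10.9. Alternatives were other scalings, floors, filters and priors, a block, left-out or added arrays, and other fold rules. The number of arrays limits the precision.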

Additional observations from a re-analysis of the deposited data

How the results depend on the processing

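With the number of the labels as a replicate block, limma called 116 probe sets (85 higher, 31 lower; 0.399%) in place of 0, and 1 member in place of 0: Ltb4r1, with the same log2 difference of 2.11, SE 0.24 and adjusted p = 0.0282. Of the listed genes the block also called Ptges (limma adjusted p = 0.00745), Mmp8 (0.0104) and Mmp9 (0.0379), all higher on the knockout-labelled arrays. It called Itgax, from a list of dendritic cell markers (log2 -1.07, limma adjusted p = 0.0408), and Cma1 (log2 -2.43, 0.0455) as lower. Over its 14 alternatives the adjusted p of Ltb4r1 ran from 0.0282 to 0.961. The titles give each number to 1 wild-type and 1 KO array, which may mark pairs, but they do not say so. Deviations of same-numbered arrays from their group means correlated at 0.347 across probe sets, which are not independent. Leaving out 1 array gave between 5 and 68 calls overall (5 without wild type 1, 12 without wild type 2, 28 without knockout 1 and 68 without knockout 2), and 0 members each time. The lone remaining array is then assumed to vary like the other genotype. Under the other 9 alternatives the count stayed 0.

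Log2 genotype differences of members changed sign for Alox5 with a floor at the 60th percentile (0.11) and without knockout 1 (0.40; -1.19 without knockout 2), and for the highest Lta4h probe set without wild type 2 (0.18) and without knockout 1 (0.39; -0.64 without knockout 2). When the pair's LPS array joined the wild types, they changed for Alox5ap (-0.11), 1453528_at of Lta4h (0.12) and Ltc4s (-0.82). Ltb4r1 and both Cysltr1 probe sets did not turn.

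The 461 probe sets past 4-fold with LPS became 1605 with the values as deposited, 966 with a floor at the 25th percentile, 936 with Trib1-line wild type 2 in place of the LPS array, 3293 and 99 with fold rules of 2 and 8, 258 with 1 probe set per gene and 48 called by limma against 3 LPS arrays. The 1 member past the rule became 2 with the values as deposited, with Trib1-line wild type 1 in place of the LPS array and with a 2-fold rule, and 0 after quantile normalization, with an 8-fold rule and by limma. With wild type 1 in place of the LPS array the 2 were Ltc4s and Cysltr1, and Ltb4r1 was -0.31 on the log2 scale. With wild type 2 in its place the count stayed 1, but the member was Ltc4s (-6.27 or lower), and Ltb4r1 was -1.77. For all these changes the cause was not tested, apart from fewer or more probe sets entering by construction. Signal over background limits Alox5, Ltc4s and Cysltr1, each under the floor on 1 Trib1-line array, and Lta4h 1426807_at, above it on 1 of 6 arrays.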
